A study of Mus musculus with 15 samples.

Results

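The tubulin isotypes measured around Tubb6 were 10 mouse genes, 7 encoding beta-tubulins (Tubb6, Tubb2a, Tubb2b, Tubb3, Tubb4a, Tubb4b and Tubb5) and 3 encoding alpha-tubulins (Tuba1a, Tuba1b and Tuba1c). They were taken by gene name from a table of 22526 gene symbols. All 10 were among the 13082 symbols with a mean of at least 1 FPKM (fragments scaled to transcript length and to the size of the library) over the libraries, which were the genes tested. Tubb6 was chosen because it was high in GFP-AL vessels and low in both other groups of these libraries, so its values are a description and carry no test. The other 9 were chosen as isotypes of the same proteins, to see whether they moved with it.

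RNA sequencing was run on cerebral vessels isolated from wild-type C57BL/6 mice aged 8 months, 15 libraries in 3 groups of 5. LH3-AL mice had a stereotactic injection of AAV-LH3, an adeno-associated virus for LH3 (a lysyl hydroxylase of collagen made from the gene Plod3), and were given AngII (angiotensin II, a vasoconstrictor peptide) plus L-NAME, which blocks nitric oxide synthases. GFP-AL mice had AAV-GFP, the control virus carrying green fluorescent protein, and the same drugs. GFP-Veh mice had AAV-GFP and saline. All 3 groups were therefore injected with a virus, and no group had AAV-LH3 with saline. The sources used here give neither the cell types that the vectors reach nor a statement that each library came from its own mouse, so p-values measure the spread between these libraries, which may be technical. GFP-AL against GFP-Veh asks what the drugs did under the control virus, LH3-AL against GFP-AL what the LH3 virus changed under the drugs, and LH3-AL against GFP-Veh what remained of the drug difference. Each pair of these comparisons shares a group, so a value that is high in GFP-AL by chance is higher against GFP-Veh and makes LH3-AL lower against it.

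Microtubules are hollow polymers of alpha- and beta-tubulin heterodimers. Each subunit is encoded by several genes, and the encoded isotypes differ mainly in the short acidic tail at their carboxyl end, where many enzymes and motor proteins act. Cells choose isotypes by type. Tubb3 is known as the neuronal isotype, Tubb2a and Tubb2b are abundant in neurons, Tubb4a in myelinating oligodendrocytes, Tubb4b in ciliated cells among others, and Tubb5 is broadly expressed and prominent in dividing cells. Tubb6 is found in many tissues at low levels, and its forced expression in cultured cells loosens the microtubule network. Cells also hold tubulin mRNA in check by autoregulation, in which free tubulin heterodimers set off decay of tubulin mRNA through the adaptor TTC5.

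How far these genes can be told apart by reads differs, and it sets how firmly each value can be read. The last 60 coding bases, stop codon included, are shown for 6 beta isotypes because they encode the isotype-specific tail. Capitals mark bases that lie in no stretch of 15 bases shared with the coding sequence of another of the 7 beta isotypes, and lower case marks the shared bases (GENCODE M21, GRCm38, coding strand, 5′ to 3′).
Tubb2a, chr13:34074468-34074527, minus strand: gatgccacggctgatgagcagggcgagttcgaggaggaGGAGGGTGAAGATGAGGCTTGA
Tubb2b, chr13:34127471-34127530, minus strand: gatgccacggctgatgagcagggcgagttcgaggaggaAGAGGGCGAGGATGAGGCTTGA
Tubb3, chr8:123421623-123421682, plus strand: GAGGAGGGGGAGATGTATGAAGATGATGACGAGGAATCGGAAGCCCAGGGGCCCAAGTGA
Tubb4a, chr17:57080690-57080749, minus strand: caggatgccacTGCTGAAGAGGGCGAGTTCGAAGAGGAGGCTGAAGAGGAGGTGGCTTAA
Tubb4b, chr2:25222308-25222367, minus strand: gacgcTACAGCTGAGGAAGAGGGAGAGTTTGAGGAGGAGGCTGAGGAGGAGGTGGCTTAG
Tubb5, chr17:35834982-35835041, minus strand: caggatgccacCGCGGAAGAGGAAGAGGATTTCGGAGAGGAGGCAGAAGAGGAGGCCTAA
The tails of Tubb3, Tubb4a, Tubb4b and Tubb5 are mostly in capitals, while Tubb2a and Tubb2b share the first part of theirs.

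Over whole transcripts, Tubb6 shared none of its 1709 distinct 50-base words with the transcript of another gene, and Tubb3, Tubb4a and Tubb5 shared 0.0%, 0.2% and 0.1% of theirs. Tubb2a shared 49.6% of its words with other genes and 45.6% with Tubb2b alone. Tubb4b shared 50.9% of its words with other genes and 43.6% with the processed pseudogene Tubb4b-ps1 alone. Tuba1a, Tuba1b and Tuba1c shared 72.9%, 73.8% and 61.0%, mostly with one another and with pseudogenes. Along the coding sequence Tubb6 was 80.2% (Tubb5) to 85.7% (Tubb3) identical to the other beta isotypes, Tubb2a was 96.5% identical to Tubb2b, and the alpha genes were 97.1% to 98.3% identical to one another. The sources used here give neither read length nor the handling of reads with several matches, so the values of Tubb2a, Tubb2b, Tubb4b and the alpha genes are uncertain where such reads could be split or dropped, whereas at this word length Tubb6, Tubb3, Tubb4a and Tubb5 are hardly touched by it.

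Gene positions are those of GENCODE M21 (GRCm38; the submitters' processing notes name mm8, and no coordinate was converted). Tubb6 (ENSMUSG00000001473) lies on chromosome 18 from 67390717 to 67402749, plus strand. Tubb2a (ENSMUSG00000058672, 34074274 to 34078007) and Tubb2b (ENSMUSG00000045136, 34126748 to 34130466) are neighbours on the minus strand of chromosome 13. Tubb3 (ENSMUSG00000062380) lies on chromosome 8 from 123411424 to 123422015, plus strand, and Tubb4b (ENSMUSG00000036752) on chromosome 2 from 25222160 to 25224702, minus strand. Tubb4a (ENSMUSG00000062591, 57080066 to 57087782) and Tubb5 (ENSMUSG00000001525, 35833921 to 35838306) are both on the minus strand of chromosome 17, far apart. The alpha genes Tuba1a (ENSMUSG00000072235, 98949837 to 98953703, minus strand), Tuba1b (ENSMUSG00000023004, 98931425 to 98934565, minus strand) and Tuba1c (ENSMUSG00000043091, 99029891 to 99038110, plus strand) form a cluster on chromosome 15.

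Depth in mega-fragments, estimated from the steps between low FPKM values, was 18.06 to 31.62 for LH3-AL libraries and 21.16 to 27.8 for GFP-AL libraries. For GFP-Veh it was 13.54 to 15.98 in replicates 1 to 4 and 29.78 in replicate 5. Whole multiples of a depth fit the same steps, so an estimate may be off by a whole factor. The first principal component of log2(FPKM + 1), with 43.6% of the variance, put GFP-AL (19.8 to 58.0) apart from LH3-AL (-26.9 to -6.44) and GFP-Veh (-27.1 to -4.13). The 3 libraries GFP-AL replicates 2 and 3 and GFP-Veh replicate 2 stood apart in an earlier analysis, and results are also given without them. Plod3, the gene the LH3 virus carries, averaged 21.6 ± 1.46 FPKM in LH3-AL, 13.9 ± 1.09 in GFP-AL and 16.8 ± 0.621 in GFP-Veh (SD, n = 5 each), with no overlap between LH3-AL and either other group. Defining markers of vessels were high: Cldn5, a tight-junction protein of brain endothelium, averaged 907 FPKM in LH3-AL, 1275 in GFP-AL and 982 in GFP-Veh, and Acta2, smooth muscle actin, 314, 285 and 359 in the same order. Other cells were present too. The summed level of 8 choroid plexus markers was 3165 to 5258 FPKM in LH3-AL, 1968 to 3094 in GFP-AL and 3675 to 9205 in GFP-Veh, that of 11 oligodendrocyte markers 506 to 1110, 350 to 911 and 710 to 1067, and that of 12 microglia and macrophage markers 301 to 362, 693 to 1165 and 227 to 524. In such bulk samples fewer cells of a type and less RNA per cell cannot be told apart.

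Tubb6 was the isotype that stood out. In the LH3-AL libraries it was at 4.23, 5.66, 5.79, 4.401 and 12.1 FPKM. In the GFP-AL libraries it was at 63.1, 219, 50.1, 87.7 and 56.7 FPKM, and in the GFP-Veh libraries at 7.23, 12.3, 9.31, 6.04 and 6.45 FPKM. Every GFP-AL library lay above every library of both other groups, whereas LH3-AL and GFP-Veh overlapped, and the highest LH3-AL library lay just below the highest GFP-Veh library. GFP-AL replicate 2 and LH3-AL replicate 5 were far above the rest of their groups.

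The Tubb6 means were 6.44 ± 3.26 FPKM in LH3-AL, 95.4 ± 70.7 in GFP-AL and 8.27 ± 2.60 in GFP-Veh (SD, n = 5 each), so the mean in GFP-AL was 11.5 times that in GFP-Veh. On the log2(FPKM + 1) scale, on which all differences below are given, with the first-named group minus the second, Tubb6 differed by 3.18 ± 0.35 (SE) in GFP-AL against GFP-Veh. The LH3-AL libraries differed by -3.55 ± 0.35 from GFP-AL and -0.36 ± 0.35 from GFP-Veh. Of the 13082 genes, 13 had a higher log2 difference than Tubb6 in GFP-AL against GFP-Veh and 2 had a lower one in LH3-AL against GFP-AL, but 539 had a lower one in LH3-AL against GFP-Veh. Without the 3 libraries that stood apart the Tubb6 differences were 3.08, -3.30 and -0.22. Without GFP-AL replicate 2 they were 2.83 and -3.19 in the comparisons that use it. Without LH3-AL replicate 5 the difference of LH3-AL from GFP-Veh was -0.59, and without GFP-Veh replicate 2 it was -0.22, so the size of this small difference rests on single libraries.

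**Figure D1:**
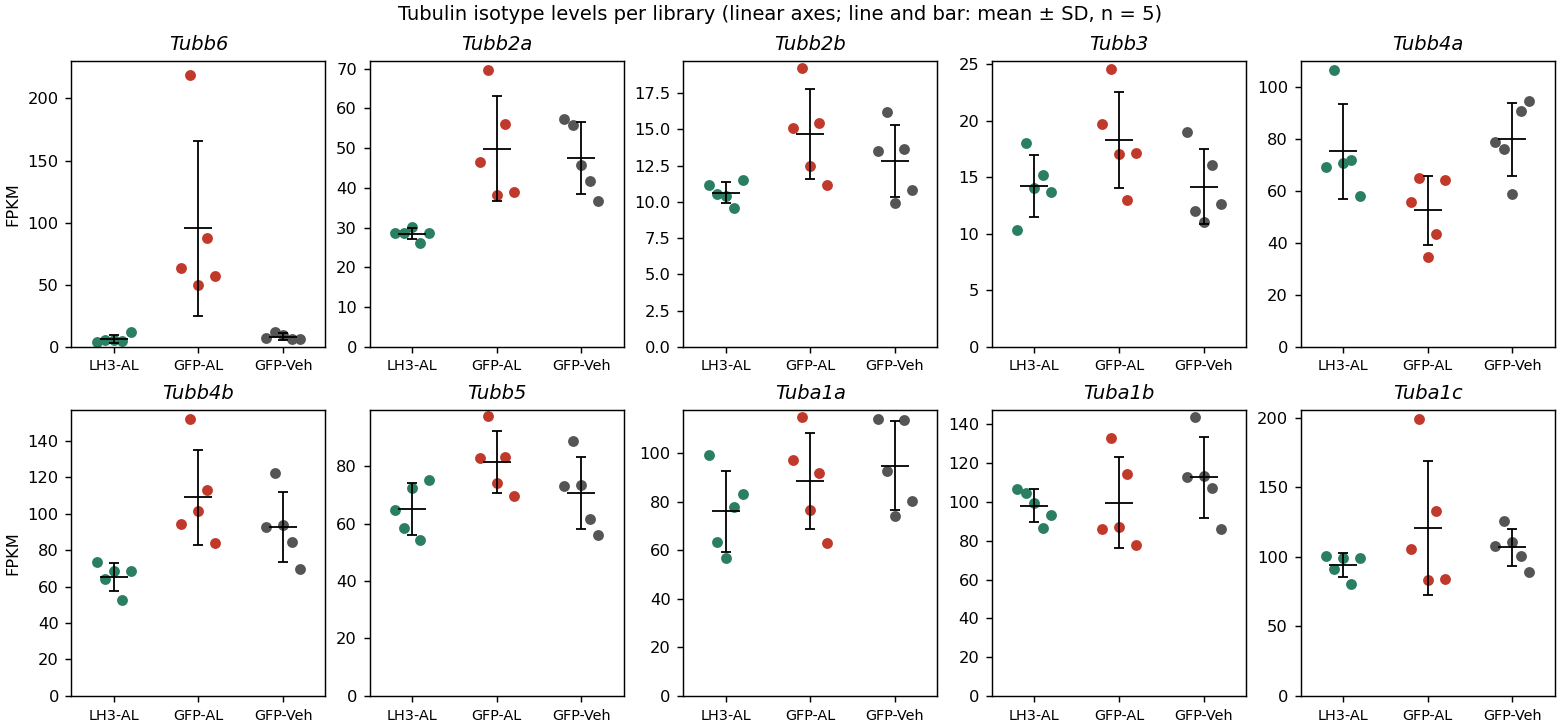
FPKM of the 10 tubulin isotypes in each library (points) for LH3-AL, GFP-AL and GFP-Veh, 1 linear axis per gene starting at 0; the line and bar are the mean ± SD of 5 libraries. Tubb6 lies at 50.1 to 219 FPKM in GFP-AL, above all other libraries, while for 7 of the other 9 genes all 3 groups overlap one another and for Tubb2a and Tubb4b LH3-AL lies below GFP-AL.

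The order of the isotypes changed with it. FPKM is per transcript length, which allows levels of different genes to be set side by side. Where reads matching several genes were dropped or split, Tubb2a, Tubb2b, Tubb4b and the alpha genes may be misplaced beside the rest. The order, shares and ratios given below carry this limit. In LH3-AL Tubb6 was the lowest of the 10 by mean FPKM, in GFP-AL it was the fourth, and in GFP-Veh again the lowest. By mean FPKM, LH3-AL ran from Tuba1b (98.1), Tuba1c (94.1), Tuba1a (76.1) and Tubb4a (75.3) through Tubb4b (65.4), Tubb5 (65.1) and Tubb2a (28.4) to Tubb3 (14.2) and Tubb2b (10.6). GFP-AL ran from Tuba1c (121), Tubb4b (109) and Tuba1b (99.7) through Tubb6, Tuba1a (88.8), Tubb5 (81.4), Tubb4a (52.6) and Tubb2a (49.9) to Tubb3 (18.3) and Tubb2b (14.7). GFP-Veh ran from Tuba1b (113), Tuba1c (107), Tuba1a (94.9) and Tubb4b (92.7) through Tubb4a (79.9), Tubb5 (70.7) and Tubb2a (47.5) to Tubb3 (14.2) and Tubb2b (12.8). Neighbours within the upper 6 places overlapped in their library ranges in all 3 groups, so that part of the order is not resolved. Tubb2a lay clear of Tubb3 and Tubb2b in every group, and in LH3-AL clear of all 6 genes above it too.

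In GFP-AL against GFP-Veh, none of the other 9 isotypes rose and 1, Tubb4a, fell. Genes with a limma p below 0.05 after Benjamini-Hochberg adjustment over the 13082 genes were called, and 28.6% of all genes were called in this comparison, 10.8% higher and 17.7% lower. The 1 of 9 is below the share called in either direction and nearer to the share called lower. On a handful of genes it is not read as a result about the isotypes. The log2 differences of the 9 ran from -0.61 to 0.35 with a median of 0.11, against a median of -0.09 over all genes tested. For none of the 9 did the 5 GFP-AL and the 5 GFP-Veh libraries separate, whereas 16.7% of all genes separated, 10.1% with GFP-AL lower. Only Tubb4a had an unadjusted p below 0.05. Standard errors of the 9 lay between 0.13 and 0.19, so a change of the size of Tubb6 lies far outside the error of any of them, but small changes could not be resolved.

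Tubb4a, abundant in myelinating oligodendrocytes, was at 55.6, 64.9, 34.7, 43.6 and 64.2 FPKM in GFP-AL. In GFP-Veh it was at 78.8, 76.3, 58.9, 91.0 and 94.7 FPKM. All but 1 of the GFP-Veh libraries lay above all GFP-AL libraries. Tubb4a fell by 0.61 ± 0.19 on the log2 scale in GFP-AL against GFP-Veh (limma adjusted p = 0.0260). The call was lost without the 3 libraries that stood apart (-0.56, limma adjusted p = 0.0701) and without any of GFP-AL replicates 3 and 4 or GFP-Veh replicates 4 and 5, with a smallest difference of -0.48. Of 11 oligodendrocyte markers, 8 were lower and 0 higher in the same comparison, where 17.7% of all genes were lower. Their summed level was 350 to 911 FPKM in GFP-AL and 710 to 1067 in GFP-Veh. Mbp and Mobp were not among the 8, at 90.6 and 300 FPKM in GFP-AL and 95.3 and 292 in GFP-Veh. The part of oligodendrocyte RNA in the Tubb4a difference was not tested.

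The remaining beta isotypes did not pass in GFP-AL against GFP-Veh. Tubb3, the neuronal isotype, came nearest, with 18.3 ± 4.24 FPKM in GFP-AL and 14.2 ± 3.32 in GFP-Veh and a difference of 0.35 ± 0.18 (limma adjusted p = 0.152). Tubb4b was at 109 ± 26.2 FPKM in GFP-AL and 92.7 ± 19.3 in GFP-Veh (0.22 ± 0.16), and Tubb5 at 81.4 ± 10.7 and 70.7 ± 12.6 FPKM (0.21 ± 0.13). Tubb2b was at 14.7 ± 3.11 FPKM in GFP-AL and 12.8 ± 2.497 in GFP-Veh (0.18 ± 0.14), and Tubb2a at 49.9 ± 13.2 and 47.5 ± 9.004 FPKM (0.05 ± 0.16). Their ranges overlapped throughout. The alpha genes differed by 0.11 ± 0.19 (Tuba1c), -0.10 ± 0.18 (Tuba1a) and -0.19 ± 0.15 (Tuba1b). None of these 8 differences passed, and the sign of those of Tubb2a, Tuba1a and Tuba1c turned under other settings or without a single library; Tuba1b passed as lower only with quantile normalization (-0.37, limma adjusted p = 0.0307).

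In LH3-AL against GFP-AL, 3 of the other 9 isotypes were called, all lower: Tubb2a, Tubb4b and Tubb2b. Of all genes, 28.5% were called, 17.0% higher and 11.4% lower. The 3 of 9 were near the share called in either direction and above the share called lower. This rests on a handful of genes, of which 2 share reads. The 9 differences ran from -0.75 to 0.52 with a median of -0.32, against 0.08 over all genes tested. For 2 of the 9, Tubb2a and Tubb4b, every LH3-AL library lay below every GFP-AL library, whereas 19.4% of all genes separated, 8.45% with LH3-AL lower. With an unadjusted p below 0.05 there were 5. Without the 3 libraries that stood apart 2 were called lower, Tubb2a and Tubb4b.

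Tubb2a was at 28.6, 28.7, 30.1, 26.2 and 28.7 FPKM in LH3-AL, at 46.4, 69.8, 38.2, 56.1 and 39.0 in GFP-AL, and at 57.4, 55.9, 45.6, 41.8 and 36.6 in GFP-Veh. The LH3-AL libraries lay close together and below all 10 others. Tubb2a fell by 0.75 ± 0.16 in LH3-AL against GFP-AL (limma adjusted p = 0.00329), and the call held when any single library was left out (-0.84 to -0.63). Against GFP-Veh the difference was of like size, -0.70 ± 0.16, but missed the threshold there (limma adjusted p = 0.0718), where only 0.52% of all genes were called. It passed in a fit of the 2 groups alone (limma adjusted p = 0.0209), with quantile normalization (0.0336) and without the 3 libraries that stood apart (0.0333) or GFP-AL replicate 2 or 3 alone, while with depth as a covariate it was -0.56 (0.856). Tubb2a thus did not follow Tubb6: it was close in GFP-AL and GFP-Veh and low in LH3-AL.

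Tubb4b was at 73.4, 64.0, 68.3, 52.8 and 68.5 FPKM in LH3-AL, at 94.3, 152, 101.6, 113 and 83.8 in GFP-AL, and at 92.9, 122, 93.9, 84.5 and 69.5 in GFP-Veh. It fell by 0.71 ± 0.16 in LH3-AL against GFP-AL (limma adjusted p = 0.00599), and the call held when any single library was left out (-0.79 to -0.58). All but 1 of the GFP-Veh libraries also lay above all LH3-AL libraries, and the difference from GFP-Veh was -0.48 ± 0.16 (limma adjusted p = 0.335). Its pseudogene Tubb4b-ps1 (ENSMUSG00000095159, chromosome 5, 7179365 to 7180700, plus strand), which shares reads with it, was at 22.0 ± 3.14 FPKM in LH3-AL, 36.7 ± 10.4 in GFP-AL and 27.9 ± 5.16 in GFP-Veh and fell by 0.69 ± 0.17 in LH3-AL against GFP-AL (limma adjusted p = 0.00791), so these are not separate observations. Tubb2b, which shares reads with Tubb2a, was at 10.6 ± 0.741 FPKM in LH3-AL, 14.7 ± 3.11 in GFP-AL and 12.8 ± 2.497 in GFP-Veh. It fell by 0.41 ± 0.14 in LH3-AL against GFP-AL (limma adjusted p = 0.0402), a call at the margin that was lost without the 3 libraries that stood apart (0.0675) and in 8 of the 15 fits that left out a single library.

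Tubb4a was the isotype that ran the other way. It was at 69.3, 106.5, 70.9, 71.9 and 58.0 FPKM in LH3-AL, set against 34.7 to 64.9 in GFP-AL, a difference of 0.52 ± 0.19 that missed the threshold (limma adjusted p = 0.0534). With quantile normalization (0.71, limma adjusted p = 0.0203) and in 4 of the fits that left out a single library it passed as higher. In LH3-AL 6 of 11 oligodendrocyte markers were higher than in GFP-AL and 0 lower, where 17.0% of all genes were higher. Their summed level overlapped widely, at 506 to 1110 FPKM in LH3-AL and 350 to 911 in GFP-AL. Mbp and Mobp were not among the 6, at 73.7 and 243 FPKM in LH3-AL and 90.6 and 300 in GFP-AL. The part of these markers' cells in the Tubb4a difference was not tested. Against GFP-Veh Tubb4a differed by -0.09 ± 0.19 (limma adjusted p = 0.924).

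Tubb5 and Tubb3 were at 65.1 ± 8.90 and 14.2 ± 2.76 FPKM in LH3-AL, and differed from GFP-AL by -0.32 ± 0.13 (limma adjusted p = 0.0824) and -0.33 ± 0.18 (0.163). Tubb5 passed as lower only with median-of-ratios scaling (-0.40, limma adjusted p = 0.0461). The alpha genes were at 76.1 ± 16.8 (Tuba1a), 98.1 ± 8.35 (Tuba1b) and 94.1 ± 8.48 FPKM (Tuba1c) in LH3-AL, and differed from GFP-AL by -0.22 ± 0.18, 0.00 ± 0.15 and -0.28 ± 0.19 (limma adjusted p = 0.382, 0.994 and 0.276). Apart from Tuba1b with quantile normalization in GFP-AL against GFP-Veh, given above, no alpha gene is called here.

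In LH3-AL against GFP-Veh, 0 of the other 9 isotypes were called by limma, where 0.52% of all genes were; 2 had an unadjusted p below 0.05. Their differences ran from -0.70 to 0.01 with a median of -0.18, against -0.01 over all genes. Tubb2a was the 1 of 9 whose LH3-AL libraries all lay below the GFP-Veh libraries, whereas 4.67% of all genes separated, 2.61% with LH3-AL lower. The numbers of called genes behind these shares were 3737 in GFP-AL against GFP-Veh (1416 higher and 2321 lower), 3723 in LH3-AL against GFP-AL (2227 higher and 1496 lower) and 68 for LH3-AL against GFP-Veh. With median-of-ratios scaling the splits were 1842 higher and 1711 lower in the first, and 1782 higher and 1895 lower in the second.

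**Figure D2:**
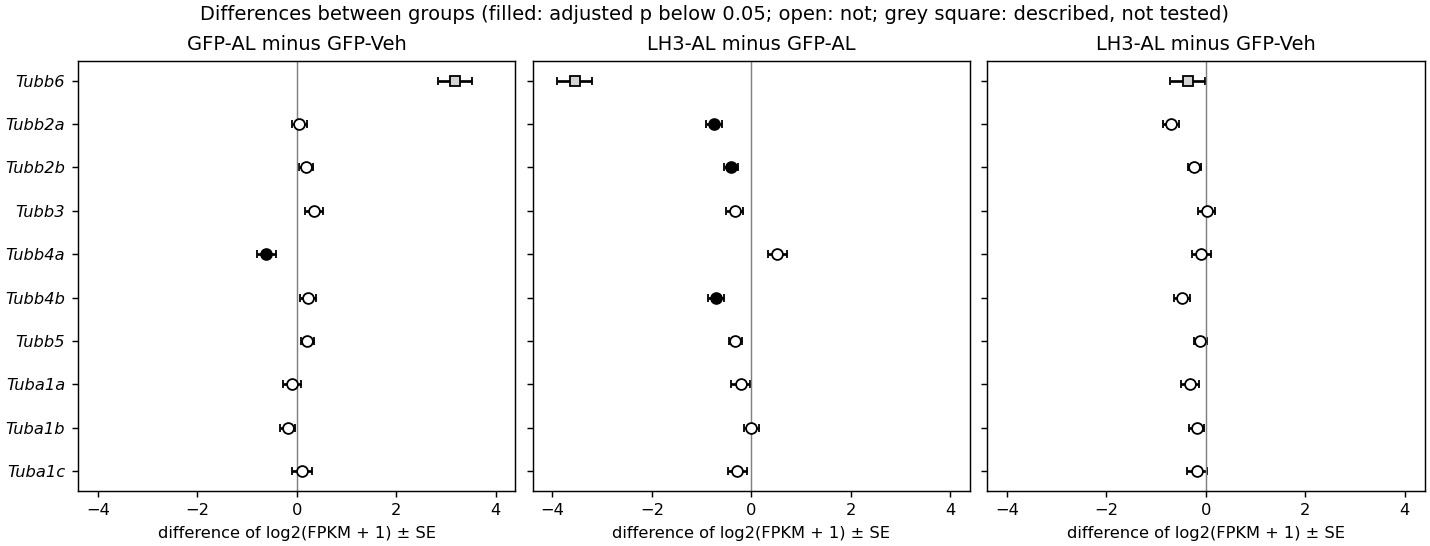
Differences of log2(FPKM + 1) between groups (first-named minus second) with their SE for the 10 isotypes; filled circles passed limma's adjusted p of 0.05, open circles did not, and grey squares mark Tubb6, which was described and not tested. Tubb6 lies at 3.18 and -3.55 in the first 2 panels, while the other 9 lie between -0.75 and 0.52.

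The make-up of the beta-tubulin mRNA pool followed from these levels. Tubb6 made up 1.62%, 1.94%, 2.13%, 1.88% and 4.53% of the summed FPKM of the 7 beta isotypes in the LH3-AL libraries. It made up 16.7%, 33.9%, 15.3%, 21.3% and 16.6% in GFP-AL, and 2.11%, 3.21%, 3.08%, 1.92% and 2.25% in GFP-Veh. Its share was at least 15.3% in every GFP-AL library and at most 4.53% in every other library. The mean shares were 2.42 ± 1.20% in LH3-AL, 20.8 ± 7.69% in GFP-AL and 2.52 ± 0.590% in GFP-Veh (SD, n = 5 each). Since Tubb6 was chosen on these levels, its shares are a description too. Their size also depends on how shared reads of Tubb2a, Tubb2b and Tubb4b were handled, which is not known.

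The rest of the beta pool did not shrink to match. Without Tubb6 the beta sum was 259 ± 20.3 FPKM in LH3-AL (230.0 to 286), 326 ± 60.1 in GFP-AL (278 to 428) and 318 ± 36.4 in GFP-Veh (280 to 372). GFP-AL and GFP-Veh overlapped along most of their ranges, and LH3-AL overlapped both only at its upper end. With Tubb6 the sums were 266 ± 20.7, 421 ± 130 and 326 ± 38.3 FPKM. The alpha sum was 268 ± 23.8 FPKM in LH3-AL, 309 ± 88.4 in GFP-AL and 315 ± 40.4 in GFP-Veh, with overlap between all 3 groups.

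The ratio of the alpha to the beta sum was 1.01 ± 0.107 in LH3-AL (0.890 to 1.17), 0.739 ± 0.0650 in GFP-AL (0.658 to 0.823) and 0.964 ± 0.0504 in GFP-Veh (0.890 to 1.02). Every GFP-AL library lay below every library of both other groups. With Tubb6 left out of the beta sum the ratio was 1.04 ± 0.109 in LH3-AL (0.908 to 1.19), 0.938 ± 0.110 in GFP-AL (0.789 to 1.05) and 0.989 ± 0.0508 in GFP-Veh (0.910 to 1.04), and all 3 groups overlapped. The ratio separated GFP-AL only with Tubb6 in the sum, and since Tubb6 was chosen on these levels, that separation is a description too. The level of the ratio also depends on the unknown handling of reads shared by the alpha genes and by some beta genes. These are mRNA levels, and the amounts of the proteins were not measured.

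Within the pool without Tubb6, the shares of Tubb4a, Tubb2a and Tubb4b separated LH3-AL from GFP-AL, and those of Tubb5, Tubb3 and Tubb2b overlapped. Tubb4a made up 28.9 ± 5.52% in LH3-AL, 16.3 ± 4.04% in GFP-AL and 25.5 ± 5.96% in GFP-Veh. Its LH3-AL shares (22.7% to 37.2%) all lay just above those of GFP-AL (12.5% to 22.5%). Tubb2a made up 11.01 ± 0.563% in LH3-AL, 15.2 ± 1.60% in GFP-AL and 14.9 ± 1.64% in GFP-Veh, with LH3-AL below all libraries of both other groups. Tubb4b made up 25.3 ± 2.58%, 33.3 ± 3.28% and 29.0 ± 3.42% in the same order, and its LH3-AL shares (22.4% to 28.5%) lay below those of GFP-AL (29.4% to 36.5%). Tubb5 made up 25.2 ± 3.44% in LH3-AL and 25.2 ± 1.61% in GFP-AL, and Tubb3 5.50 ± 1.01% and 5.64 ± 0.930%. A share falls when another isotype gains, so these shares are not independent of one another.

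**Figure D3:**
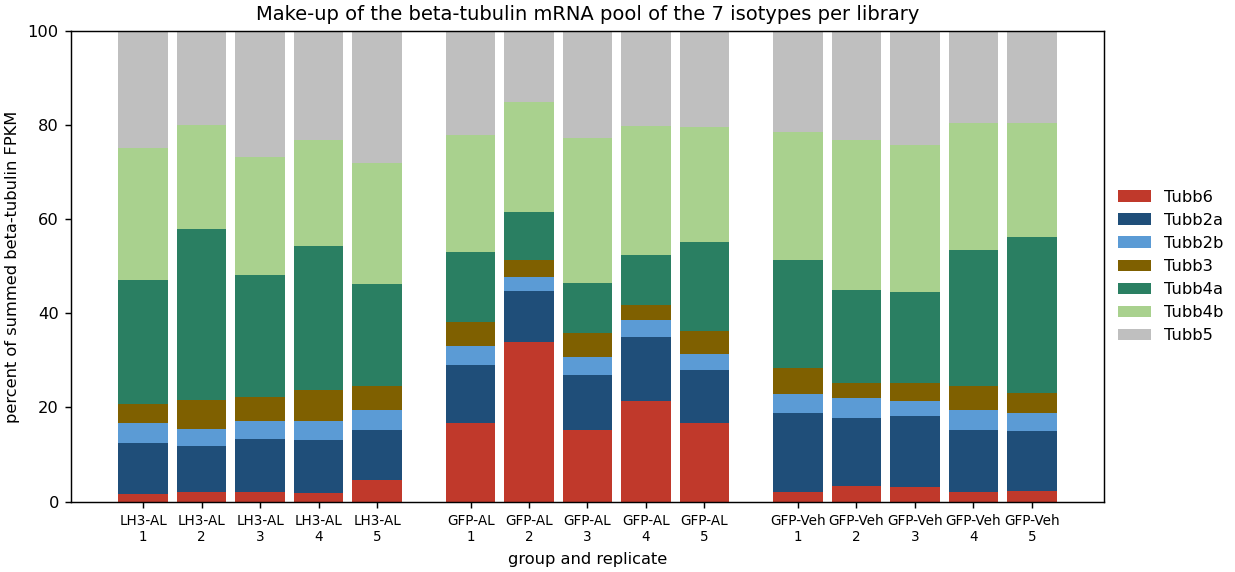
Each of the 7 beta isotypes as a percent of their summed FPKM, 1 bar per library, with LH3-AL at the left, GFP-AL in the middle and GFP-Veh at the right. Tubb6 (red, at the base) makes up 15.3% to 33.9% in GFP-AL and 1.62% to 4.53% in the other 10 libraries.

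**Figure D4:**
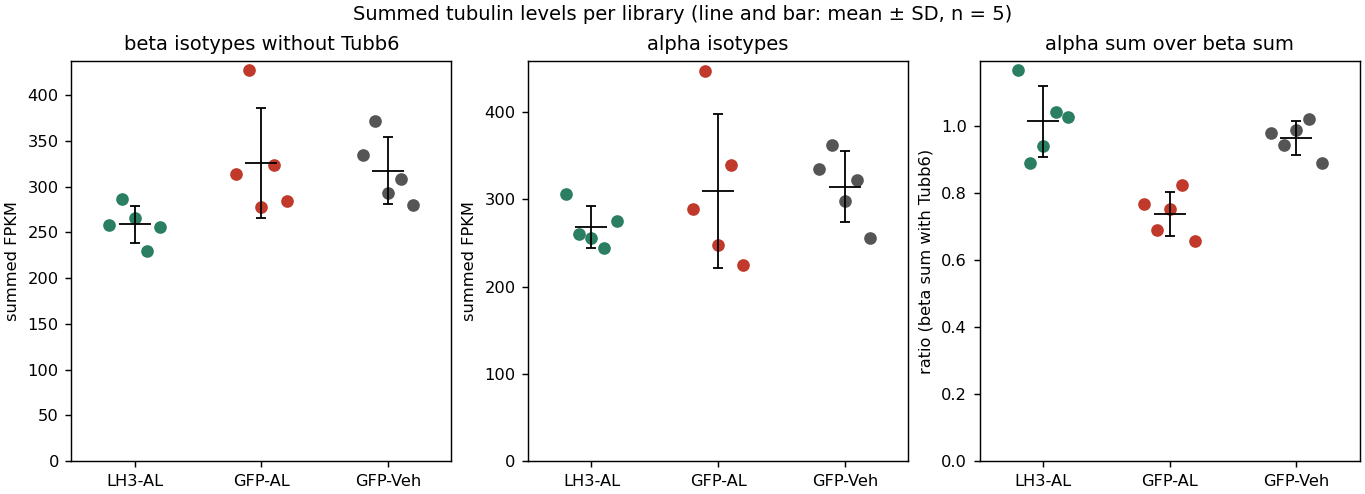
Summed FPKM of the 6 beta isotypes other than Tubb6, summed FPKM of the 3 alpha isotypes, and the ratio of the alpha sum to the beta sum with Tubb6, per library (points) with the mean ± SD of 5. The sums overlap between groups, while the ratio is 0.658 to 0.823 in GFP-AL and 0.890 or more in every other library. Since Tubb6 was chosen on these levels, the separation of the ratio is a description.

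Upstream sequence was set beside Tubb2a and Tubb4b, the pair that was lower in LH3-AL than in GFP-AL without overlap. The 250 bases before the start of each gene are given (RefSeq, GRCm38.p6, coding strand, 5′ to 3′; 8 of the 10 isotypes matched an entry), with capitals marking matches to 3 elements of the textbook promoter: the CCAAT box (CCAAT, or ATTGG for the reverse strand), the GC box (GGGCGG, or CCGCCC for the reverse strand) and the TATA box (TATAAA, or TTTATA for the reverse strand).
Tubb2a, chr13:34078009-34078258, minus strand: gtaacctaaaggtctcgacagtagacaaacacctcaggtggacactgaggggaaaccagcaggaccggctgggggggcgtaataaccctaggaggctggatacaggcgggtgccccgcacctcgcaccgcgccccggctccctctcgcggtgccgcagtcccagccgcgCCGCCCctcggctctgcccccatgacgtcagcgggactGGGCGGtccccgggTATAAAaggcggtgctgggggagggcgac
Tubb4b, chr2:25224703-25224952, minus strand: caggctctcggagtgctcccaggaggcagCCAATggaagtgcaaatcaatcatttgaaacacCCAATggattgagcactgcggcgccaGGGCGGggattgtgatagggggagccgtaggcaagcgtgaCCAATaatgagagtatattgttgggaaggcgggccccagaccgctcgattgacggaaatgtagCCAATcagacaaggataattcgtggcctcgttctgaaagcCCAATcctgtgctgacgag
Tubb2a had 2 GC boxes, 1 TATA box and 0 CCAAT boxes in this window, and Tubb4b had 5 CCAAT boxes, 1 GC box and 0 TATA boxes. No motif match overlapped another, and among 32851 promoter windows of the same length 33.8% held a CCAAT box, 32.7% a GC box and 12.4% a TATA box. The GC box, the motif that the pair had in common, was also in the windows of Tubb3, Tuba1a and Tuba1b, which were not called in LH3-AL against GFP-AL. A match is a description of the letters and says nothing of what binds there.

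Beyond the 10 isotypes, 10 further tubulin genes were looked for and 8 were in the table, of which 5 were expressed enough to be tested. Of these 5, 1 was higher and 1 lower in GFP-AL against GFP-Veh, where 10.8% of all genes were higher and 17.7% lower. Tubb1, the beta isotype of platelets and megakaryocytes, was the 1 that rose in GFP-AL. It was at 2.92, 0.852, 1.17, 0.879 and 1.38 FPKM in LH3-AL, at 4.22, 2.47, 8.01, 4.58 and 1.31 in GFP-AL, and at 0.568, 0.384, 0.224, 0.959 and 0.446 in GFP-Veh. All GFP-AL libraries lay above all GFP-Veh libraries, and 16.7% of all genes separated in that comparison in either direction. LH3-AL lay between with overlap. Tubb1 rose by 1.62 ± 0.30 in GFP-AL against GFP-Veh (limma adjusted p = 0.00108) and fell by 0.98 ± 0.30 in LH3-AL against GFP-AL (0.0240). The second call was lost without the 3 libraries that stood apart (-0.80, limma adjusted p = 0.0859), in a fit of the 2 groups alone (0.0535) and without any of GFP-AL replicate 3 and LH3-AL replicates 2 and 4. Pf4 and Itga2b, platelet genes picked after the values were seen, were at 7.35 and 1.06 FPKM in LH3-AL, 19.6 and 2.93 in GFP-AL and 6.82 and 0.761 in GFP-Veh; the part of platelets in the Tubb1 difference was not tested.

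Tubd1, the delta-tubulin of centrioles, was at 2.30 ± 0.479 FPKM in LH3-AL, 1.66 ± 0.516 in GFP-AL and 2.75 ± 0.371 in GFP-Veh. It fell by 0.51 ± 0.14 in GFP-AL against GFP-Veh (limma adjusted p = 0.0128), a call lost without the 3 libraries that stood apart (-0.40, 0.0561) and with quantile normalization (-0.37, 0.0574). Tubg1, the gamma-tubulin of nucleating ring complexes, stayed within 14.1 to 14.8 FPKM by group mean and did not pass, nor did Tubg2 or Tuba4a. Tuba8, Tube1 and Tuba3b were below the filter.

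Genes that act on tubulin were read as 4 groups, with actin and intermediate filament genes set beside them. Their gene lists were drawn up with earlier results of these data known. Of 22 folding genes (the CCT chaperonin, prefoldin, the tubulin cofactors and TTC5), 0 rose and 1 fell in GFP-AL against GFP-Veh. Over all genes 10.8% were higher and 17.7% lower there. The gene that fell was Tbcel (-0.37, limma adjusted p = 0.0464), with a list median of -0.04. This single call was lost with no filter, with the filter at 5 FPKM, with quantile normalization, in a fit of the 2 groups alone and with a replicate block, and with median-of-ratios scaling the 1 gene called was a higher one. This count changed in 11 of the 15 fits that left out a single library. In LH3-AL against GFP-AL 0 rose and 4 fell, where 17.0% of all genes were higher and 11.4% lower. The list median was -0.21 against 0.08 over all genes. The 4 were subunits of CCT, the chaperonin that folds newly made tubulin and actin: Cct2 (-0.44, limma adjusted p = 0.00186), Tcp1 (-0.31), Cct4 (-0.29) and Cct6a (-0.26). The CCT subunits Cct3, Cct5, Cct7 and Cct8 were not called. Without GFP-AL replicate 2 the count was 1. In LH3-AL against GFP-Veh 0 rose and 2 fell, Cct4 (-0.51, limma adjusted p = 0.0183) and Cct6a (-0.45, 0.0471), as 0.375% of all genes did. The last count was 1 with no filter, with median-of-ratios scaling or with a replicate block, and 0 without LH3-AL replicate 4. It fell below 2 in 13 of the 15 fits that left out a single library. Without the 3 libraries that stood apart, 1 rose and 1 fell, 3 fell, and 3 fell in the same 3 comparisons, and with depth as a covariate 0 passed in the first and the last.

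Of 15 tested enzymes that modify tubulin after its synthesis, 0 rose and 7 fell in GFP-AL against GFP-Veh, where 10.8% of all genes were higher and 17.7% lower, with a list median of -0.34 against -0.09 over all genes. They included Atat1, which acetylates alpha-tubulin (-0.89 ± 0.18, limma adjusted p = 0.00200), Ttll3, a glycylase (-0.80), Ttll5, a glutamylase (-0.34), and Ttl, which puts tyrosine back on alpha-tubulin (-0.39). In LH3-AL against GFP-AL 6 rose and 0 fell, where 17.0% of all genes were higher and 11.4% lower, with a median of 0.32 against 0.08, among them Agbl5 (0.43), Ttll5 (0.32), Ttll3 (0.68) and Agtpbp1 (0.40), where Agbl5 and Agtpbp1 remove glutamate from tubulin tails. Against GFP-Veh none of the 15 passed in LH3-AL by limma, also at an unadjusted p below 0.05. Without the 3 libraries that stood apart 6 fell in the first comparison but only 1 rose in the second, and without GFP-AL replicate 3 alone 2 passed in the second. The first count was 3 with quantile normalization or in a fit of the 2 groups alone and 4 with depth as a covariate or without GFP-Veh replicate 5, and the second was 3 with quantile normalization. Of 7 tested ependymal markers, from ciliated cells, which use glycylation and acetylation heavily, 5 were lower in GFP-AL than in GFP-Veh and 3 higher in LH3-AL than in GFP-AL; their part in these counts was not tested.

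Of 29 tested microtubule-binding genes, 1 rose and 7 fell in GFP-AL against GFP-Veh (median -0.28), a share near the 28.6% of all genes called. Among those with the smallest p were Map4, a broadly expressed stabilizer of microtubules (-0.60), Stmn4 (-1.08) and Clasp2, which binds growing plus ends (-0.68). In LH3-AL against GFP-AL 6 rose and 0 fell (median 0.30), a share near the 17.0% of all genes that were higher, led by the neuronal Map2 (1.29 ± 0.30, limma adjusted p = 0.00630), Map4 (0.57), Map1a (0.86) and Stmn2 (0.42), and in LH3-AL against GFP-Veh none of the 29 passed by limma, with 1 higher and 2 lower at an unadjusted p below 0.05. Of 12 neuron markers, 0 passed by limma in GFP-AL against GFP-Veh (2 lower at an unadjusted p below 0.05) and 1, Stmn2 itself, was higher in LH3-AL against GFP-AL. The first count was 2 with depth as a covariate, 3 in a fit of the 2 groups alone and 4 with median-of-ratios scaling or without GFP-AL replicate 3; the second was 3 with median-of-ratios scaling or without GFP-AL replicate 3. Of 11 nucleation genes 1, Cdk5rap2, passed, lower in GFP-AL against GFP-Veh (-0.52) and higher in LH3-AL against GFP-AL (0.46). The second call was lost without the 3 libraries that stood apart and without GFP-AL replicate 3. The second count changed in 6 of the 15 fits that left out a single library.

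Of 25 actin and intermediate filament genes, 8 rose and 3 fell in GFP-AL against GFP-Veh, where 10.8% of all genes were higher and 17.7% lower, among them Tpm3 (0.96) and Vim, the intermediate filament protein vimentin (0.96), which rose, and Nes, nestin (-1.51), and Vcl, vinculin (-0.74), which fell. In LH3-AL against GFP-AL 0 rose and 9 fell, where 11.4% of all genes were lower, led by Zyx, zyxin of focal adhesions (-0.83, limma adjusted p = 8.59e-05), Tpm3 (-0.91), Vim (-0.78) and Pfn1, profilin (-0.51). Nes (-1.07, limma adjusted p = 0.0192) and Zyx (-0.53, 0.0248) were also lower in LH3-AL than in GFP-Veh. Neither passed with a replicate block, with depth as a covariate or without LH3-AL replicate 2. The count fell below 2 in 9 of the 15 fits that left out a single library. Without the 3 libraries that stood apart the counts were 7 higher and 2 lower, 8 lower, and 3 lower, and the first was 4 higher and 2 lower with depth as a covariate or in a fit of the 2 groups alone. Whether the share of called genes differs between this list and the tubulin members was not tested.

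Markers of immune cells, red cells, endothelium and dividing cells were read in the same comparisons. Of 12 microglia and macrophage markers 8 were higher in GFP-AL than in GFP-Veh and 8 lower in LH3-AL than in GFP-AL, and of 8 neutrophil markers 5 were higher and 7 lower. The summed neutrophil markers were at 44.2 to 79.6 FPKM in LH3-AL, 120 to 935 in GFP-AL and 99.1 to 315 in GFP-Veh. In LH3-AL against GFP-Veh 0 markers of these 2 lists passed by limma. At an unadjusted p below 0.05, 4 neutrophil and 0 microglia and macrophage markers were lower there. All 6 red cell markers were higher in GFP-AL than in GFP-Veh, 0 were lower in LH3-AL than in GFP-AL, and 2 were higher in LH3-AL than in GFP-Veh. Of 12 endothelial markers 4 were higher and 3 lower in GFP-AL, and 1 higher and 3 lower in LH3-AL against GFP-AL. For scale, 10.8% of all genes tested were higher and 17.7% lower in GFP-AL than in GFP-Veh. From GFP-AL to LH3-AL the shares were 17.0% higher and 11.4% lower, and 0.145% were higher in LH3-AL than in GFP-Veh. Dividing cells gave little RNA: 3 of their 13 markers reached the filter, 0 were called by limma (1 higher in GFP-AL against GFP-Veh at an unadjusted p below 0.05), and their sum was 3.50 to 18.3 FPKM in LH3-AL, 5.31 to 13.8 in GFP-AL and 4.13 to 5.35 in GFP-Veh, with Ccnb1 below 0.1 FPKM in all GFP-Veh libraries. The part of any of these cell types in the Tubb6 difference was not tested.

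The genes most like Tubb6 over the 15 libraries were not tubulins. Likeness was the root mean square difference of log2(FPKM + 1) values, each centred on the gene's mean, leaving out predicted genes and pseudogenes; a flat profile gave 1.69. The 8 nearest were Tnfsf8, the CD30 ligand (0.462), Adamts9, a secreted metalloprotease (0.465), Fosl1, an AP-1 transcription factor subunit (0.469), Ctla2a, a protease inhibitor related to a cathepsin propeptide (0.475), Cd14, the lipopolysaccharide co-receptor (0.526), Ccl6, a chemokine (0.530), Saa3, an acute-phase serum amyloid (0.556), and Hmox1, haem oxygenase (0.565). Among the other 9 isotypes the value ran from 1.43 (Tubb4b) to 1.96 (Tubb4a), so the nearest of them was little closer to Tubb6 than a flat line. The measure is not scaled to the size of a gene's changes. It therefore cannot show whether an isotype with small changes shares the shape of the Tubb6 profile.

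Adamts9 was at 1.43, 1.18, 1.29, 1.23 and 4.26 FPKM in LH3-AL, at 17.5, 56.9, 17.4, 27.4 and 13.5 in GFP-AL, and at 1.68, 0.483, 1.32, 1.103 and 1.25 in GFP-Veh. Its highest library was the same in GFP-AL (replicate 2) and in LH3-AL (replicate 5) as for Tubb6. However, GFP-AL replicate 2 was also the highest GFP-AL library for every other tubulin isotype, so that peak does not set these genes apart from the tubulins. Fosl1 averaged 0.309 ± 0.183 FPKM in LH3-AL, 10.4 ± 8.90 in GFP-AL and 0.394 ± 0.201 in GFP-Veh, and Hmox1 7.498 ± 4.401, 45.4 ± 29.2 and 4.78 ± 0.941 FPKM. The 8 genes were picked for this pattern and shared its libraries, so their differences (2.74 to 3.87 in GFP-AL against GFP-Veh, -4.07 to -2.37 in LH3-AL against GFP-AL) are descriptions.

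**Figure D5:**
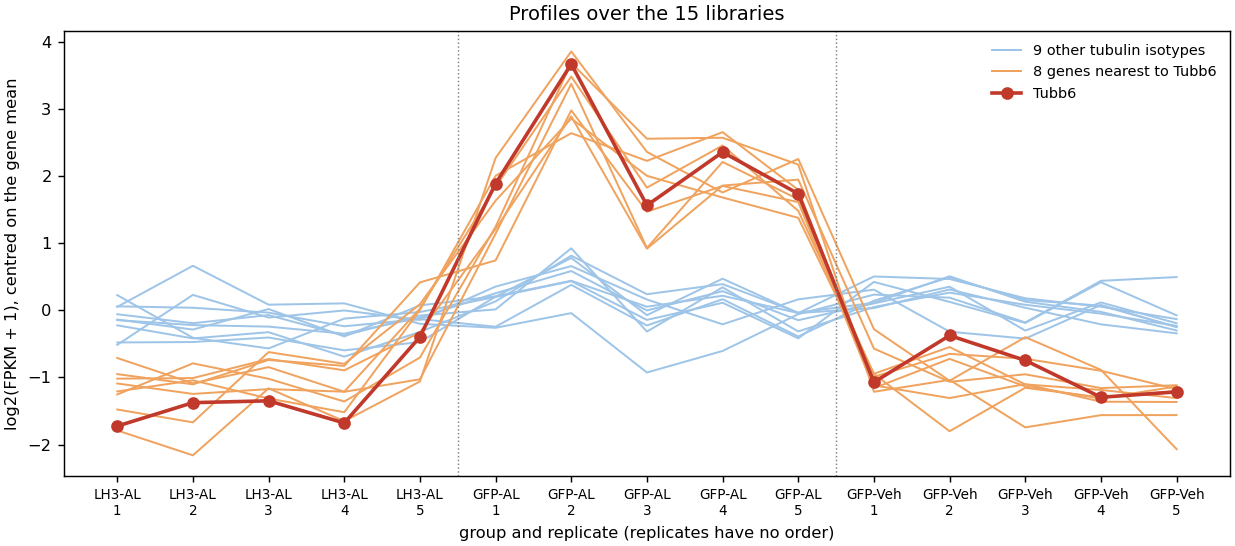
log2(FPKM + 1) of Tubb6 (red), the 8 genes nearest to it (orange) and the other 9 tubulin isotypes (blue) in the 15 libraries, each centred on its own mean; lines join libraries only to show which points belong to 1 gene. Tubb6 and the 8 genes lie high in all 5 GFP-AL libraries, with the peak of Tubb6 and of 7 of the 8 genes at replicate 2. Each of the other isotypes stays within 1 of its mean, and replicate 2 is the highest GFP-AL library for each of them as well.

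The deposited lists of changed genes held few tubulins. In the authors' deposited table of GFP-AL against GFP-Veh, of 1764 genes with an absolute log2 fold change of at least 1, Tubb6 stood at 3.53 (q = 8.02e-19) and Tubb1 at 2.99 (q = 2.11e-07), and no other gene of the 10 isotypes or the further tubulins was listed. The authors' second deposited table, of 1746 genes, is named for LH3-AL against GFP-Veh, but its fold changes differed from those computed here for LH3-AL against GFP-AL by a median of 0.12 on the log2 scale with 100% of signs shared, and from LH3-AL against GFP-Veh by 1.47 with 58.8% of signs shared. In that authors' deposited table Tubb6 stood at -3.89 (q = 3.92e-18) and Tubb1 at -1.51 (q = 0.00733). Since both tables list only changes of at least 1 on the log2 scale, the absence of Tubb2a, Tubb4b and Tubb4a from them is set by their size.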

How the data were processed

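Per the labels, vessels were isolated from perfused brains cleared of pia mater and choroid plexus. Per the submitters' processing notes, STAR 2.5.1b and the build mm8 were used, with no counting step named there. Per the file headers, the authors deposited FPKM, 22557 rows by 15 libraries. Of these values 5.99% were below 0 (lowest -0.465), which FPKM cannot be, and they were set to 0. The authors also deposited log2 fold changes with p-values and q-values, whose test is not given. Rows sharing a symbol (31 symbols) were summed. Low values were whole reads (within 0.1 read) for 43.1% to 65.2% of genes against 20% by chance, so no count test was run.

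Differences were fitted to log2(FPKM + 1) by limma 3.58.1 (R 4.3.3), on a scale that understates changes of low genes, with group means over all 15 libraries, an intensity trend, genes of at least 1 FPKM on average, and Benjamini-Hochberg adjustment within a comparison. Scripts were tested on simulated data. Named were the 10 isotypes, the 8 genes nearest to Tubb6 and up to 4 called genes per pathway list and comparison, smallest p first, except items that are not reported here; Pf4, Itga2b, Tubb4b-ps1 and the marker genes given by level fall outside this rule and were chosen after values were seen. Members and lists were chosen with earlier results of these data known. Alternatives were a pseudocount of 0.1, no filter or a stricter one (5 FPKM on average), scaling by median-of-ratios or to equal quantiles, fits of the 2 groups alone, a replicate block, log2 depth as a covariate, all tubulin genes in the sums, and leaving out libraries; applying them to the pathway lists, Tubb1 and Tubd1 was decided after seeing the data.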

Additional observations from a re-analysis of the deposited data

Results flagged for a closer look

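Of 78 groups of 5 libraries examined (10 isotypes, the tested further tubulins, the 8 genes nearest to Tubb6 and the sums, each in 3 groups), 10 had a library that lay apart from the other 4 by Dixon's test at the 95% level. Chance alone flags about 1 in 20 groups, and the flags are not independent, since many fall on the same library.

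Tubb6 in GFP-AL replicate 2 was at 219.2 FPKM, against 50.15 to 87.66 in the other 4 GFP-AL libraries. The same library was the highest of its group for Saa3 (63.91 FPKM, the others 14.12 to 21.99) and for the beta sum (646.8 FPKM, the others 328.4 to 411.9). Tubb6 in LH3-AL replicate 5 was at 12.14 FPKM, against 4.23 to 5.79 in the others. That library was also the highest of its group for Tnfsf8 (2.085 FPKM, the others 0.073 to 0.4919), Adamts9 (4.261, the others 1.18 to 1.428) and Hmox1 (15.29, the others 4.685 to 6.312).

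Tubb4a in LH3-AL replicate 2 was at 106.5 FPKM, against 58.04 to 71.9 in the others. Tubb1 in LH3-AL replicate 1 was at 2.917 FPKM, against 0.8521 to 1.375. Hmox1 in GFP-Veh replicate 2 was at 6.394 FPKM, against 3.916 to 4.564.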

How the results depend on the processing

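The Tubb6 differences kept their direction under all alternatives run (3.08 to 3.32 for GFP-AL against GFP-Veh, -3.74 to -3.30 for LH3-AL against GFP-AL and -0.44 to -0.22 for LH3-AL against GFP-Veh), and over single libraries left out they ran from 2.83 to 3.36, -3.78 to -3.19 and -0.59 to -0.22. Tubb2a and Tubb4b stayed called in LH3-AL against GFP-AL under all of them. Estimated depth is uneven between groups, may be off by a whole factor and is unknown as counts. Small differences of low genes are therefore not resolved. Reads shared by near-identical tubulins limit Tubb2a, Tubb2b, Tubb4b and the alpha genes.

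Genes called numbered 2174 and 2109 with a mean of at least 5 FPKM, which tests fewer genes, in GFP-AL against GFP-Veh and LH3-AL against GFP-AL. With depth as a covariate they numbered 2362 in GFP-AL against GFP-Veh and 4 in LH3-AL against GFP-Veh. The last comparison had 176 in a fit of the 2 groups alone and 158 without GFP-AL replicates 2 and 3 and GFP-Veh replicate 2. Leaving out 1 library gave 2840 to 4437, 2658 to 4291 and 27 to 110 genes (fewest without LH3-AL replicate 3, most without GFP-AL replicate 2). In GFP-AL against GFP-Veh 2 isotypes were called with quantile normalization and 0 without the 3 libraries. For LH3-AL against GFP-Veh 1, Tubb2a, was called with quantile normalization, in the fit of 2 groups and without the 3 libraries. Leaving out 1 library gave 0 to 1, 2 to 4 and 0 to 1. The alpha-to-beta ratio in GFP-Veh was 0.9027 with all tubulin genes of the table. Their beta sum included the pseudogenes Tubb4b-ps1 and Tubb4b-ps2, and Tubb4b-ps1 averaged 27.9 FPKM in GFP-Veh. The cause of the shifts in the numbers of called genes and isotypes was not tested.

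Signs turned for some small differences. In GFP-AL against GFP-Veh they were Tubb2a (-0.0329, quantile), Tuba1a (0.162, depth) and Tuba1c (-0.08097, quantile). In LH3-AL against GFP-AL they were Tuba1a (0.02528, quantile) and Tuba1b (-0.07447, median-of-ratios). LH3-AL against GFP-Veh had Tubb3 (-0.0365, without the 3 libraries), Tubb5 (0.01226, depth) and Tuba1b (0.008076, depth). With 1 library left out, Tubb2a ran from -0.07476 to 0.1383, Tuba1a from -0.2029 to 0.01018 and Tuba1c from -0.09152 to 0.2186 in the first comparison. Tuba1b ran from -0.07986 to 0.1125 in the second, and Tubb3 from -0.07138 to 0.1202 in the third. Tubb2b lost its call in the second with no filter (limma adjusted p = 0.0539) and with depth (0.0501).

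Libraries that share a replicate number did not deviate together (correlations of -0.261 to 0.286, with few libraries closest to their own number). With a replicate block 3783, 3879 and 31 genes were called in the 3 comparisons, with 1, 4 and 0 isotypes, and Tubb4a passed as higher in LH3-AL against GFP-AL (limma adjusted p = 0.0389).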

Other observations

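Marker lists of further cell types, not set beside the tubulins above, were read in the same fit (limma, adjusted p below 0.05). Of 8 choroid plexus markers 7 were lower in GFP-AL than in GFP-Veh (list median -0.9975 on the log2 scale, against -0.09 over all genes) and 6 were higher in LH3-AL than in GFP-AL (0.87, against 0.08), and 0 were higher in the first comparison or lower in the second. Of 8 smooth muscle markers 2 were lower in GFP-AL than in GFP-Veh and 1 was higher in LH3-AL than in GFP-AL, and the same counts held for 7 pericyte markers, against 17.7% of all genes lower in the first comparison and 17.0% higher in the second. Of 8 astrocyte markers 1 was higher and 2 were lower in GFP-AL against GFP-Veh, and 1 was higher and 1 lower in LH3-AL against GFP-AL. Of 6 fibroblast markers 0 passed in GFP-AL against GFP-Veh (1 lower at an unadjusted p below 0.05) and 1 was higher in LH3-AL than in GFP-AL. In LH3-AL against GFP-Veh 0 markers of these 5 lists passed, with 1 choroid plexus and 1 astrocyte marker lower at an unadjusted p below 0.05. The part of these cell types in the tubulin differences was not tested.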
